A study of Mus musculus with 15 samples.

Results

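MHC class I antigen presentation was followed through 10 genes, taken by name as the core of the pathway: B2m, H2-K1, H2-D1, H2-T23, Tap1, Tap2, Tapbp, Psmb8, Psmb9 and Psmb10. They are 10 of the 43629 genes in the count tables, and all 10 had enough reads to be among the 15864 genes tested. The RNA came from whole brains of wild-type male C57BL/6J mice in all groups. There were 4 groups: 4 mice at 3 months with free access to food (ad libitum, AL), 3 mice at 3 months on every-other-day feeding (EOD, called intermittent fasting in the labels), 4 AL mice at 24 months and 4 EOD mice at 24 months. The study's methods give a somewhat lower age for the old mice at the start of its analyses, and they start EOD in early adulthood, so that young EOD mice had been restricted for a short time and old EOD mice for most of their life. Whole brain pools all regions and cell types, so fewer cells of a type and less RNA per cell cannot be told apart.

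MHC class I molecules show short peptides from inside a cell to CD8 T cells and natural killer cells. A polymorphic heavy chain pairs with beta-2-microglobulin and takes up a peptide in the endoplasmic reticulum. The immunoproteasome, which carries inducible catalytic subunits in place of the constitutive ones, cuts proteins to such peptides, the TAP transporter moves them across the membrane, and tapasin holds the empty class I molecule at the transporter. Neurons hold little surface class I at rest, microglia and endothelial cells more, and interferons raise most genes of the pathway. In the brain, class I molecules are also known for a part in synapse development and plasticity.

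RefSeq gave a promoter window for 9 of the 10 genes. Those of the 2 classical heavy chains and their light chain are shown because these 3 genes differed with age on either diet. Each line gives the 250 bases before the RefSeq start site on GRCm38.p6, in the direction of transcription, and the capitals mark matches to 5 textbook motifs searched on both strands. The annotation used for the counts starts H2-D1 earlier, at 35262730, so the printed H2-D1 bases lie inside its counted span.
B2m, chr2:122147437-122147686, plus strand: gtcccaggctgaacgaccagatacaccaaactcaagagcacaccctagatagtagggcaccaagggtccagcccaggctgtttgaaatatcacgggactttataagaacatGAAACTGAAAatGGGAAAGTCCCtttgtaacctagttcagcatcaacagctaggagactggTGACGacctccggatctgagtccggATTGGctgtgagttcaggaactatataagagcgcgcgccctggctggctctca
H2-K1, chr17:34000334-34000583, minus strand: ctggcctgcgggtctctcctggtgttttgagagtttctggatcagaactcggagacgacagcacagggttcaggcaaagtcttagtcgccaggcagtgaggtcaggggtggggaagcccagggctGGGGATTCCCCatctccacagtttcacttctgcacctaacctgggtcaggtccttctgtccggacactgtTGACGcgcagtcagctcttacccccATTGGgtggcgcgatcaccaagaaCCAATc
H2-D1, chr17:35262844-35263093, plus strand: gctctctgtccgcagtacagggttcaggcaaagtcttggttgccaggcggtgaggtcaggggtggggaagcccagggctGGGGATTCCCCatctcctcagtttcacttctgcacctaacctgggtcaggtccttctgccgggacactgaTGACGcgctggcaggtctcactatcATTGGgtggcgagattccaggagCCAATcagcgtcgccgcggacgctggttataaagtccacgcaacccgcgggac

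The motifs were the core of the interferon-stimulated response element (GAAANNGAAA), the gamma-activated site (TTCNNNGAA), an NF-kB site (GGGANNNNCC), the CCAAT box (CCAAT) and the core of the cyclic AMP response element (TGACG). Only exact matches to these letters were sought. Looser variants of a motif, also in H2-K1 and H2-D1, would stay unmarked, so a missing match does not show that an element is absent. Over the windows from 250 bases before to 50 after the start, GAAANNGAAA was found for B2m and H2-T23 and in 3.44% of all 32851 RefSeq windows of this length. GGGANNNNCC was found for B2m, H2-K1 and H2-D1 and in 20.73% of windows, and each printed run of capitals for it holds 2 overlapping matches, 1 on each strand. TTCNNNGAA was found for Psmb8 alone among the 9 members with a window, and in 8.3% of windows. CCAAT was found for 7 of the 9 members and in 37.41% of windows, and TGACG for 5 members and in 20.81% of windows. The printed 250 bases of H2-K1 and H2-D1 were alike, with 180 identical bases of 203 aligned (88.7%). Those of B2m shared 135 of 222 aligned bases (60.8%) with H2-D1 and 118 of 239 (49.4%) with H2-K1. Gaps in the alignments are not counted, and the share between unrelated promoters was not measured. No factor was measured at these sites.

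Tap1 and Psmb9 are transcribed away from each other, and their RefSeq starts lie 225 bases apart. The interval is shown because a transporter subunit and a proteasome subunit share it.
Between the Psmb9 and Tap1 starts, chr17:34187331-34187555, plus strand: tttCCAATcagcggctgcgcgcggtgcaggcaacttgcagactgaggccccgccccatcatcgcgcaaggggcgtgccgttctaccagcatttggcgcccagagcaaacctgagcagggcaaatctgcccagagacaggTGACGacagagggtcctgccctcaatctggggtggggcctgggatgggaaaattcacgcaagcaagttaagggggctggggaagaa

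Each mouse gave between 5198748 and 13610729 counts (median 9886766). The third young AL mouse stood apart from the other 14: its position on the first principal component was 82.7, against -11.6 to -0.785 for the others, and it had the largest total with the fewest genes detected (17280). Results that rest on this mouse are given with and without it. The file headers name 3 sequencing lanes with 5, 6 and 4 mice. Lane 3 held no young EOD mouse. Replicate libraries of a group differed by more than sampling noise in all 21 pairs.

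Levels within the pathway spanned more than 2 orders of magnitude. On the RPKM scale, which divides counts by library size and exon length, B2m averaged 142 ± 34.4 (SD, n = 15), above every other member. Psmb10, the inducible partner of Psmb7, followed at 15.6 ± 2.38, then H2-D1 at 14.8 ± 5.19 and H2-K1 at 10.1 ± 3.22. Psmb10 and H2-D1 were within their spread of each other. Tapbp was at 7.17 ± 0.9 and H2-T23 at 3.0 ± 0.468. The remaining 4 genes were low, with Tap2 at 1.91 ± 0.52, Psmb8 at 1.22 ± 0.477, Tap1 at 0.573 ± 0.234 and Psmb9 at 0.438 ± 0.175 RPKM. Tap1 and Psmb9 were within their spread of each other, and Psmb9 rested on 6 to 26 reads per mouse.

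Old brains held more mRNA of the classical class I molecules than young brains, on either diet. B2m, H2-K1 and H2-D1 were the 3 members called higher in old than in young AL mice and also the 3 called in EOD mice, by edgeR's quasi-likelihood test at a false discovery rate (FDR) under 0.1 over all genes tested. The share of all genes called higher was 0.946% in AL and 0.258% in EOD. Averaged over both diets, 6 of the 10 members were higher in old mice, against 1.62% of all genes: the same 3 and Tap1, Tap2 and Psmb8. No member was lower. The median log2 fold change of the 10 members was 0.76 in AL and 0.57 in EOD, against -0.01 and 0 over all genes tested. Without the third young AL mouse the counts stayed at 3, 3 and 6, and the genes were the same.

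Every mouse of an old group lay above every young mouse of the same diet for 6 members in AL (B2m, H2-K1, H2-D1, H2-T23, Tap2 and Psmb8) and for 5 in EOD (the same without H2-T23). Over all genes tested, 2.98% separated in that direction in AL and 4.75% in EOD. Leaving out the third young AL mouse added Tap1 to the AL genes. The 2 age comparisons use different mice, whereas each diet comparison shares its mice with them.

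**Figure D1:**
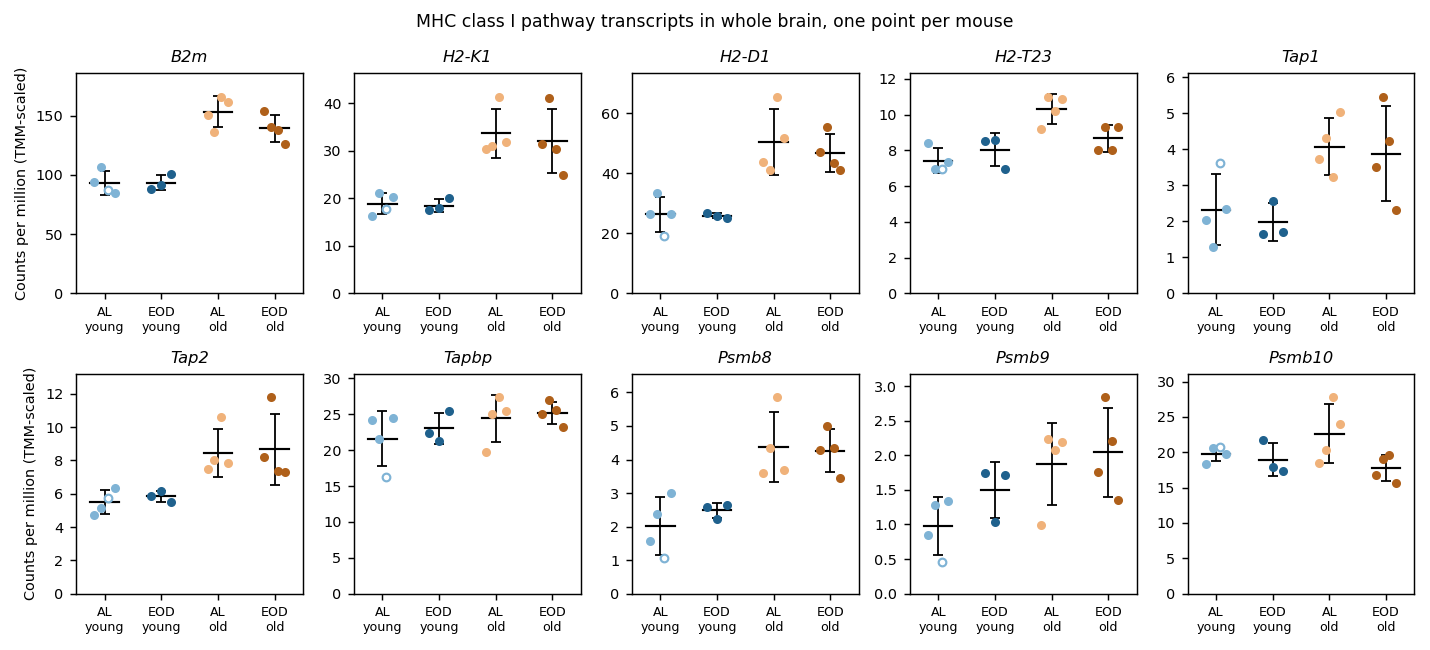
Counts scaled to library size (CPM, vertical axes, starting at 0, a different range for each gene) of the 10 genes in the 4 groups, with 1 point per mouse, bars for the mean and whiskers for the SD; the open circle is the third young AL mouse. B2m lies between 85.1 and 107 in young AL mice and between 136 and 166 in old AL mice, while the groups overlap for Tapbp and Psmb10.

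B2m (ENSMUSG00000060802, chr2:122147686-122153083) encodes beta-2-microglobulin, the light chain shared by class I molecules. In young AL mice it was at 93.8, 107, 86.9 and 85.1 CPM (counts scaled to library size), and in young EOD mice at 88.2, 91.8 and 100.4 CPM. Old AL mice were at 150.3, 136, 166 and 162 CPM and old EOD mice at 154, 140.3, 138 and 126 CPM. The young and old ranges did not meet, and the 2 diets overlapped at each age. B2m was 1.64-fold higher with age in AL (log2 fold change 0.72, SE 0.087, FDR 6.58e-05) and 1.49-fold higher in EOD (0.58, SE 0.0955, FDR 0.00558). It ranked 13th of 15864 genes by p in AL and 15th in EOD.

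H2-K1 (ENSMUSG00000061232, chr17:33996017-34000333) encodes the heavy chain H-2K. Its level was 16.3, 21.1, 17.8 and 20.3 CPM in young AL mice and 17.6, 17.9 and 20 CPM in young EOD mice. It was 30.5, 31.1, 41.4 and 31.8 CPM in old AL mice and 31.5, 41.2, 30.5 and 24.9 CPM in old EOD mice. A single mouse at about 41 CPM stood above its group at 24 months on either diet, the third AL and the second EOD mouse. H2-K1 rose 1.77-fold with age in AL (log2 fold change 0.82, SE 0.139, FDR 0.0029) and 1.73-fold in EOD (0.79, SE 0.155, FDR 0.0275).

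H2-D1 (ENSMUSG00000073411, chr17:35262730-35267499), the heavy chain H-2D, showed the largest log2 fold change of the 3 on either diet. In AL this lead rested on the third young AL mouse: without it the log2 fold changes of H2-D1 and H2-K1 were 0.81 and 0.8. Young AL mice were at 26.3, 33.3, 19 and 26.5 CPM, with the third mouse lowest, and young EOD mice at 26.8, 25.6 and 25.2 CPM. Old AL mice reached 43.6, 41.1, 65.4 and 51.8 CPM, and old EOD mice 46.9, 55.5, 43.5 and 41.1 CPM. H2-D1 rose 1.92-fold in AL (log2 fold change 0.94, SE 0.151, FDR 0.00181), or 1.75-fold without the third young mouse (FDR 0.00399), and 1.8-fold in EOD (0.85, SE 0.168, FDR 0.0282).

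The calls of H2-K1 and H2-D1 in EOD rested on few young mice. Leaving out any 1 of the 3 young EOD mice, or the second old EOD mouse, lost both calls (FDR 0.105 to 0.267) with log2 fold changes of 0.65 to 0.88, and left B2m as the only member called. H2-K1 and H2-D1 share part of their sequence with other class I genes: 6.9% of the 50-base windows of H2-K1 transcripts and 13.9% of those of H2-D1 occur unchanged in another annotated gene, against none of those of B2m. In each lane with both ages, the 3 genes were higher in old mice, by at least 0.56 log2 units in AL and 0.55 in EOD, with 1 or 2 mice a group in a lane.

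**Figure D2:**
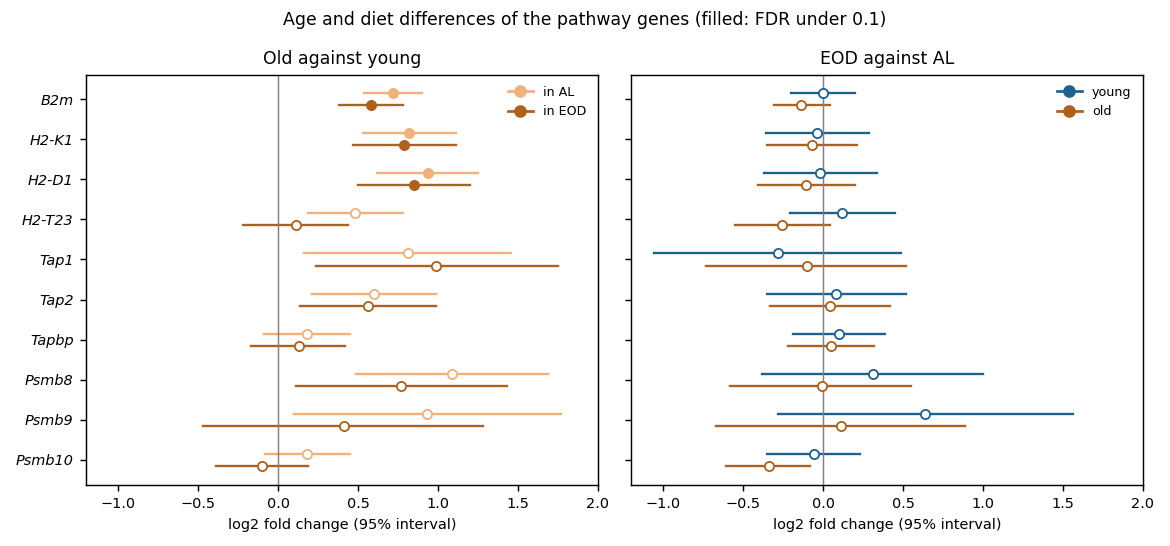
Log2 fold change (horizontal axis) of each gene with its 95% interval, for old against young on the left and EOD against AL on the right; filled points have an FDR under 0.1. The age intervals of B2m, H2-K1 and H2-D1 lie above 0 on either diet, and no diet point is filled.

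H2-T23 (ENSMUSG00000067212, chr17:36029773-36032855) encodes Qa-1, a nonclassical class I molecule that presents signal peptides to inhibitory receptors of natural killer cells. It was at 8.44, 6.96, 6.95 and 7.36 CPM in young AL mice, at 8.52, 8.6 and 6.97 in young EOD mice, at 9.2, 11, 10.2 and 10.9 in old AL mice, and at 8.04, 9.33, 8.01 and 9.33 in old EOD mice. The old AL mice lay above the young ones, and the old EOD mice overlapped with young EOD mice. The log2 fold change with age was 0.48 in AL (SE 0.143, FDR 0.17) and 0.11 in EOD (SE 0.158, FDR 0.995), neither under the FDR threshold, and averaged over diets it was 0.3 (FDR 0.224). The difference between these changes was -0.37 (95% interval -0.82 to 0.07, FDR 1). Of the 50-base windows of H2-T23, 28.8% occur in another gene, most often in H2-T-ps (12.9%) and H2-Q1 (7.9%), and unique counting leaves out reads from such stretches.

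The TAP transporter is a heterodimer of the products of Tap1 and Tap2. Tap1 (ENSMUSG00000037321, chr17:34187553-34197225) was at 2.05, 1.28, 3.63 and 2.34 CPM in young AL mice and at 1.64, 2.58 and 1.71 CPM in young EOD mice. It was at 3.73, 4.33, 3.22 and 5.04 CPM in old AL mice and at 3.52, 5.46, 4.24 and 2.31 CPM in old EOD mice. The third young AL mouse, at 3.63 CPM, overlapped with the old AL mice and set the young spread. The log2 fold change was 0.81 in AL (SE 0.312, FDR 0.371) and 0.99 in EOD (SE 0.363, FDR 0.706), and 0.9 averaged over diets (SE 0.239, FDR 0.0651). Without that mouse the change in AL was 1.14 (FDR 0.109). The average reached 1.07 (FDR 0.0104) without that mouse, and its call was lost on leaving out either of 2 young EOD, 2 old AL or 2 old EOD mice or the first young AL mouse (FDR 0.102 to 0.21).

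Tap2 (ENSMUSG00000024339, chr17:34203527-34216321) was higher and less scattered than Tap1. Young AL mice were at 4.7, 5.13, 5.74 and 6.36 CPM, young EOD mice at 5.85, 6.19 and 5.52 CPM, old AL mice at 7.46, 8, 10.6 and 7.82 CPM, and old EOD mice at 8.21, 11.8, 7.37 and 7.31 CPM. All 8 old mice lay above all 7 young mice. The change averaged over diets was 1.5-fold (log2 fold change 0.58, SE 0.138, FDR 0.0344), and within AL (0.6, FDR 0.199) or EOD (0.56, FDR 0.69) it did not pass the threshold. Some Tap2 exon bases lie opposite Gm20496 (165 bases) and Gm15821 (533 bases), and only strand can tell these reads apart.

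Tapbp (ENSMUSG00000024308, chr17:33915899-33929288), which encodes tapasin, did not pass the test in any comparison. It was at 24.2, 21.6, 16.2 and 24.5 CPM in young AL mice, with the third mouse lowest, and at 19.8, 25.1, 27.4 and 25.4 CPM in old AL mice. In EOD mice it was at 22.4, 21.3 and 25.5 CPM when young and at 25.1, 27, 25.6 and 23.3 CPM when old. The groups overlapped. The log2 fold change was 0.18 in AL (95% interval -0.09 to 0.45) and 0.13 in EOD (-0.17 to 0.42), and averaged over diets it was 0.15 (FDR 0.574). Without the third young AL mouse the AL value was 0.06. Tapbp shares 61 exon bases with Zbtb22 on the same strand, where reads could belong to either gene.

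Of the 3 inducible catalytic subunits of the immunoproteasome, Psmb8 passed the test for age averaged over diets, and Psmb9 and Psmb10 did not. Psmb8 (ENSMUSG00000024338, chr17:34197721-34201454, LMP7, which replaces Psmb5) was at 1.57, 2.38, 1.06 and 3.01 CPM in young AL mice and at 2.57, 2.24 and 2.63 CPM in young EOD mice. Old AL mice were at 3.61, 4.33, 5.86 and 3.7 CPM and old EOD mice at 4.27, 5.01, 4.33 and 3.46 CPM. All 8 old mice lay above all 7 young mice. Averaged over diets Psmb8 rose 1.91-fold (log2 fold change 0.93, SE 0.214, FDR 0.027), and 1.75-fold without the third young AL mouse (FDR 0.0189). In AL alone its FDR was 0.101, just above the threshold and so not called, with a log2 fold change of 1.09 (SE 0.289), and DESeq2 gave an FDR of 0.0478 (0.191 by edgeR without the third young AL mouse). In EOD the change was 0.77 (SE 0.315, FDR 0.782).

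Psmb9 (ENSMUSG00000096727, chr17:34181988-34187764, LMP2, which replaces Psmb6) was the least abundant member. It was at 0.844, 1.28, 0.453 and 1.34 CPM in young AL mice, at 1.75, 1.03 and 1.71 in young EOD mice, at 0.995, 2.23, 2.08 and 2.19 in old AL mice, and at 1.76, 2.84, 2.21 and 1.35 in old EOD mice. The first old AL mouse, at 0.995 CPM, lay within the young range and far below the 3 others of its group. The log2 fold change of 0.93 in AL had a wide 95% interval (0.1 to 1.77, FDR 0.456), as did that of 0.41 in EOD (-0.47 to 1.28, FDR 0.995). Without the third young AL mouse the AL value was 0.67 (FDR 0.768). Averaged over diets the change was 0.67 (FDR 0.357). Tap1 and Psmb9 share 212 exon bases on opposite strands.

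Psmb10 (ENSMUSG00000031897, chr8:105935728-105938392, MECL-1, which replaces Psmb7) lies, like B2m, outside chromosome 17, which carries the other 8 members. Young AL mice were at 18.3, 20.6, 20.7 and 19.7 CPM and old AL mice at 18.5, 20.3, 27.8 and 24 CPM. Young EOD mice were at 21.7, 17.9 and 17.3 CPM and old EOD mice at 16.8, 19.1, 19.6 and 15.6 CPM. The age groups overlapped on either diet. The log2 fold change with age was 0.18 in AL (95% interval -0.08 to 0.45) and -0.1 in EOD (-0.39 to 0.19), and averaged over diets it was 0.04 (FDR 0.917).

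No member passed edgeR's test between EOD and AL mice at either age, nor did any gene of the 15864 tested (0.0% called in young, in old and for the interaction of age and diet). At an unadjusted p under 0.05 there were 0 members for diet in young, 1 in old and 0 for the interaction. DESeq2 called 0 members in the 3 comparisons, and so did limma voom with sample weights. Among all genes DESeq2 called 1 in young mice and limma voom 2 in old mice. At an unadjusted p under 0.05 edgeR had 657 genes in young mice, 409 in old mice and 362 for the interaction. No member's groups separated by diet at either age. The share of all genes was counted only for lower in old EOD mice, where it was 1.36%. It was not counted for higher in old EOD mice or for young mice. At so small a share a set as small as the members would often hold no such gene. The lack of separation thus does not set the members apart from other genes. The intervals bound the size of a diet difference for abundant members. For B2m the EOD to AL difference was 0 in young mice (95% interval -0.2 to 0.2 log2 units) and -0.14 in old mice (-0.31 to 0.04). For H2-K1 it was -0.04 (-0.36 to 0.29) and -0.07 (-0.35 to 0.21), and for H2-D1 -0.02 (-0.37 to 0.34) and -0.11 (-0.41 to 0.2). For Tap1, Psmb8 and Psmb9 the intervals in old mice reached from -0.73 to 0.52, from -0.58 to 0.55 and from -0.67 to 0.89, so a diet difference within these bounds was not resolved for them. For Tap2 and Tapbp the values in old mice were 0.04 (-0.33 to 0.42) and 0.05 (-0.22 to 0.32). In young mice, the remaining members differed by 0.12 for H2-T23, -0.28 for Tap1, 0.08 for Tap2, 0.1 for Tapbp, 0.31 for Psmb8, 0.64 for Psmb9 and -0.06 for Psmb10. Without the third young AL mouse the values of Tap1, Psmb8 and Psmb9 were 0.03, 0.07 and 0.38.

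The member at p under 0.05 for diet in old mice was Psmb10, at 17.8 ± 1.92 CPM (SD, n = 4) in old EOD and 22.7 ± 4.11 CPM (SD, n = 4) in old AL mice. The log2 difference was -0.34 (SE 0.128, FDR 1), and it was below 0 in each of the 3 lanes (-0.45 to -0.14). The 2 groups overlapped. H2-T23 was next, with a log2 difference of -0.26 in old mice (95% interval -0.55 to 0.04, FDR 1), below 0 in each lane too. For the difference between the 2 age changes, the medians of the members and of all genes were -0.11 and 0.01, and the widest value was that of Psmb9 (-0.53, 95% interval -1.73 to 0.68). It was -0.14 for B2m, -0.03 for H2-K1, -0.09 for H2-D1, 0.18 for Tap1, -0.04 for Tap2, -0.05 for Tapbp, -0.32 for Psmb8 and -0.29 for Psmb10, and each of these intervals held 0.

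Ratios within a mouse do not depend on scaling between libraries. The 3 inducible subunits were set against the constitutive subunit each replaces, and the 2 heavy chains against B2m. Per length, Psmb8 mRNA was 2.68% of Psmb5 mRNA in young AL, 4.66% in young EOD, 7.37% in old AL and 7.35% in old EOD mice. Psmb9 was 0.666%, 1.15%, 1.3% and 1.4% of Psmb6 in the same order, and Psmb10 was 14.7%, 14.6%, 17.8% and 13.9% of Psmb7. The constitutive mRNAs were thus the larger part in every group. None of Psmb5, Psmb6 and Psmb7 passed the test for age, with log2 fold changes from -0.29 to 0 in AL.

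The Psmb8 to Psmb5 log2 ratio was -3.43, -3.4, -4.55 and -2.91 in young AL mice and -2.24, -1.98, -1.85 and -2.37 in old AL mice. It was -2.88, -2.54 and -2.9 in young EOD mice and -2.29, -1.81, -2.11 and -2.25 in old EOD mice. Old mice lay above young mice on either diet, by 1.46 log2 units in AL and 0.66 in EOD (exact two-sided permutation p = 0.0286 each). After adjustment over the 20 tests of 5 ratios in 4 comparisons the value was 0.245 for both, and no ratio passed. This exact permutation p of 0.0286 is the smallest that 4 against 4 or 4 against 3 mice allow. Young EOD mice lay above young AL mice by 0.8 (exact permutation p = 0.0571), with the third young AL mouse lowest. Without that mouse the Psmb8 to Psmb5 log2 ratio was 1.13 higher with age in AL and 0.47 higher with EOD in young mice. With all mice, Psmb5 itself was at 22.9 ± 3.81 CPM in young AL and 17.5 ± 3.59 CPM in young EOD mice. That is a log2 difference of -0.38 (edgeR FDR 0.996), beside 0.31 for Psmb8. Part of the ratio difference with diet in young mice thus lies in Psmb5, as does part of that with age in AL (Psmb5 -0.29). The other ratios overlapped between the groups compared, except for H2-D1 to B2m with age in EOD, which was 0.26 log2 units higher in old mice (exact permutation p = 0.0571). The H2-K1 to B2m ratio differed by 0.11 in AL and 0.19 in EOD.

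**Figure D3:**
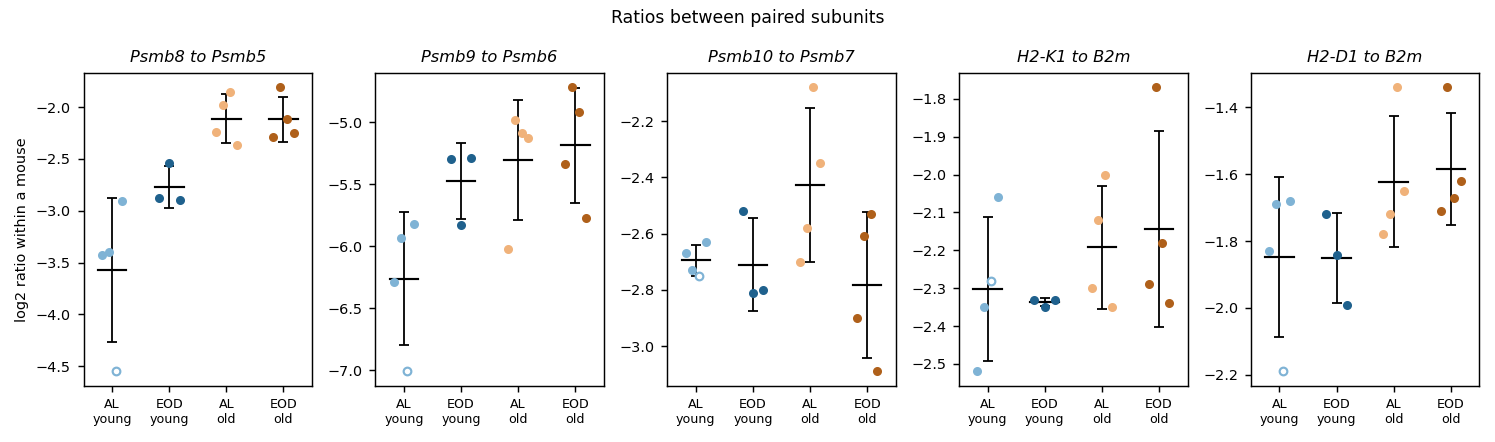
Log2 ratio within a mouse (vertical axes, a different range for each pair) for 5 gene pairs in the 4 groups, with 1 point per mouse, the mean and the SD; the open circle is the third young AL mouse. For Psmb8 to Psmb5 the old mice lie between -2.37 and -1.81 and the young mice between -4.55 and -2.54, and the other pairs overlap between ages in AL.

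Within each old group the same mice tended to hold the extreme values. The third old AL mouse had the highest value of its group for 7 of the 10 genes and the first the lowest for 7. Among old EOD mice the second was highest for 8 genes and the fourth lowest for 9. Averaged over the 10 members, the log2 CPM relative to the gene mean was 0.08, 0.29, 0.51 and 0.37 in old AL mice and 0.2, 0.5, 0.24 and -0.01 in old EOD mice. It was -0.41, -0.29, -0.53 and -0.19 in young AL mice and -0.23, -0.28 and -0.25 in young EOD mice. Both of the highest mice were sequenced in lane 2, as was the second old AL mouse, which was highest for 2 genes. The same highest mice had the smallest total of their group (5198748 counts in AL and 8653827 in EOD). They also had its lowest sum of neuronal markers (6902 and 6847 CPM). The second old EOD mouse had the highest sum of red cell and reticulocyte markers (86.4 CPM), and the third old AL mouse, at 42.6 CPM, was within its group. The part of lane, total count, neuronal markers or blood in this order was not tested.

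**Figure D4:**
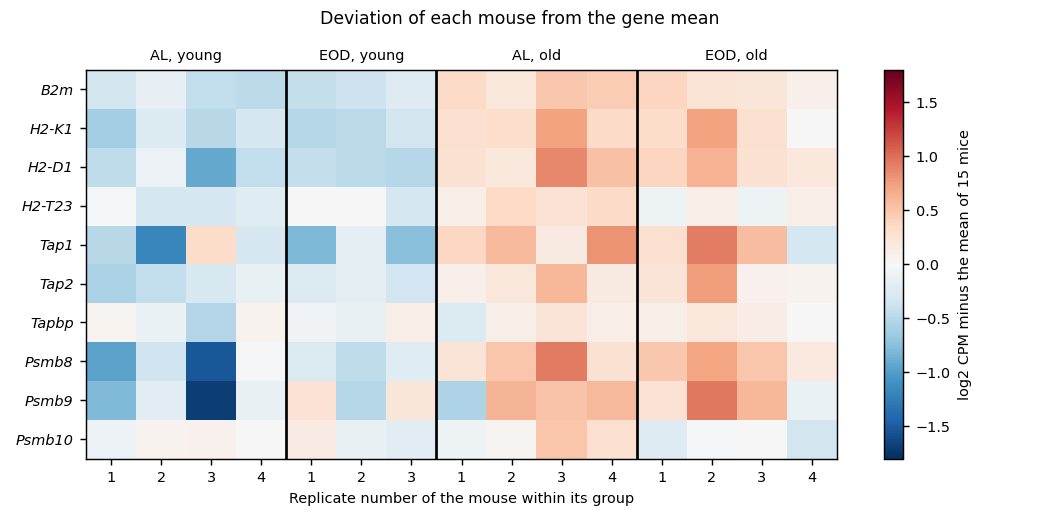
Log2 CPM of each gene in each of the 15 mice minus the gene's mean over all mice, in colour (red above, blue below); columns are mice by group and replicate number, rows are genes. Young mice are mostly blue and old mice mostly red for the upper 3 genes, and Tapbp and Psmb10 stay pale.

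Further genes of the pathway were read from lists of fixed membership. Of 16 other class I and class I-like genes, 12 were tested and none was called for age in AL or EOD by edgeR, with a median log2 fold change of 0.35 in AL and 0.21 in EOD. Averaged over diets, H2-Q4 (1.21, SE 0.264, FDR 0.0186) and H2-Q6 (1.62, SE 0.402, FDR 0.0443) were higher in old mice, and without the third young AL mouse Mr1 was called too. Both are Qa-2 region genes at low levels: H2-Q4 was at 1.43 ± 0.159 CPM in young AL and 3.04 ± 0.499 CPM in old AL mice (SD, n = 4 each), and H2-Q6 at 0.839 ± 0.276 and 1.85 ± 0.717 CPM. Of their 50-base windows, 24.3% and 32% occur in other genes, so their values are uncertain. The more abundant H2-T22, the antigen-presenting Mr1 and the IgG receptor Fcgrt had averaged changes of 0.34, 0.37 and -0.08. The value of H2-T22 is uncertain too, since 43.9% of its windows are shared.

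None of the 10 peptide-loading and chaperone genes was called for age by edgeR in AL, in EOD or averaged. The lectin chaperone Calr was at 341 ± 22.3 CPM in young AL and 414 ± 54.8 CPM in old AL mice (log2 fold change 0.28, FDR 0.279), and Canx and the tapasin partner Pdia3 both changed by 0.12. None of the 5 genes for proteasome activators and the assembly factor Pomp was called either. The activator subunit Psme1 was at 18.6 ± 3.95 CPM in young AL and 23.7 ± 2.94 CPM in old AL mice (log2 fold change 0.36, FDR 0.393). Whether these lists differ from the members was not tested.

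Of 22 tested regulators of class I transcription, 1 was called for age in AL. Irf8, an interferon regulatory factor of myeloid cells, was at 3 ± 0.436 CPM in young AL and 7.11 ± 1.07 CPM in old AL mice (log2 fold change 1.23, SE 0.207, FDR 0.00282). In EOD it was at 3.18 ± 0.173 and 4.33 ± 0.888 CPM (0.46, FDR 0.917), and the difference of the 2 changes was -0.77 (SE 0.314, FDR 1). Of 18 tested interferon-stimulated genes outside the pathway, 4 were called in AL (Ifitm3, Bst2, Ifi27 and Gbp2), 1 in EOD (Ifi27) and 7 averaged over diets. Their median log2 fold change was 0.62 in AL and 0.41 in EOD. Bst2, which tethers virus particles, rose by 1.3 in AL (SE 0.242, FDR 0.00735), and the guanylate-binding protein gene Gbp2 by 1.25 (SE 0.264, FDR 0.0207). Ifi27 rose on either diet, by 0.54 in AL (FDR 0.00474) and 0.74 in EOD (FDR 0.00126). The remaining 3 averaged calls were Rtp4 (0.82), Igtp (0.48) and Irgm1 (0.5).

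Markers of cell types that carry class I moved with age to different degrees. The 8 microglial markers summed to 342 to 387 CPM in young AL, 332 to 364 in young EOD, 414 to 467 in old AL and 403 to 452 in old EOD mice. The old and young ranges did not meet, and the mean sum was 1.19-fold higher in AL and 1.24-fold higher in EOD, beside 1.64-fold and 1.49-fold for B2m. The median log2 fold change of the 8 markers was 0.18 in AL and 0.25 in EOD, and P2ry12 differed by -0.02 and 0.12. The 6 endothelial markers summed to 155 to 184 CPM in young AL and 162 to 190.5 CPM in old AL mice, and none was called. The 5 astrocyte markers summed to 1385 to 1535 CPM in young AL and 1608 to 1794 CPM in old AL mice. In EOD the sums overlapped, at 1431 to 1614 CPM in young and 1590.1 to 1733 CPM in old mice. Gfap was the only astrocyte marker called, in AL (1.22, FDR 1.71e-09) and in EOD (1.1, FDR 1.26e-07). It averaged 168 CPM in young AL and 393 CPM in old AL mice. The median log2 fold change of the 5 markers was 0.03 in AL and -0.02 in EOD. Neuronal markers, which check the labelled tissue, summed to 6847 to 8789 CPM over all mice. The part of these cell types in the class I difference was not tested.

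T cells, which read class I, were near the limit of detection. Cd3d, Cd3e, Cd3g, Cd8a and Cd8b1 had between 0 and 5 reads in any mouse, and 3 to 19 reads each over all 15 mice. In young AL mice 4 of the 6 T cell markers were at 0 and in old AL mice none was, at counts too low to compare. Cd4, with 31 to 158 reads, is also expressed outside T cells. B cell markers had at most 6 reads in a mouse. The 4 red cell and reticulocyte markers, a sign of blood in the tissue, summed to 23.4 to 42.7 CPM in young AL, 37.8 to 41.8 in young EOD, 35.8 to 54.8 in old AL and 42.4 to 86.4 in old EOD mice, and none of the 4 was called for age. The ranges of young and old mice overlapped in AL and did not meet in EOD (1.42-fold). The sum of 86.4 CPM was that of the second old EOD mouse. The 4 markers of border macrophages summed to 12.1 to 18.7 CPM in young AL and 7.73 to 15 CPM in old AL mice, which overlap, and to 12.8 to 15.3 CPM in young EOD and 9.67 to 11 CPM in old EOD mice, which do not (0.754-fold). None of the 4 was called. Choroid plexus markers summed to 313 to 776 CPM in young AL and 577 to 1004 CPM in old AL mice. The lowest young AL sums of blood and choroid plexus markers were those of the third mouse, and without it the ranges were 40.7 to 42.7 and 736 to 776 CPM.

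Genes whose profile over the 15 mice lay nearest to the mean centred profile of the members were ranked among 14115 genes by the mean absolute difference in log2 CPM. The nearest 5 were Galnt6 (0.101), Pmp22 (0.109), Man2b1 (0.114), Selplg (0.125) and C1qb (0.13), where the median over all ranked genes was 0.32. Pmp22, a myelin protein gene, was at 28.4 ± 2.74 CPM in young AL and 44.6 ± 2.31 CPM in old AL mice, and C1qb, a complement component of microglia, at 32.3 ± 3.14 and 60.8 ± 9.89 CPM. Without the third young AL mouse these 5 genes ranked 2, 3, 1, 6 and 17. The measure rests on shared group means, since both the members and these genes were higher in old mice. Among the members themselves Tap2 (0.115), H2-K1 (0.12) and B2m (0.126) lay nearest to the common profile. Tap1 (0.34) lay farthest, above the median of 0.32 over all ranked genes. Each member is part of the common profile, so the members' distances cannot be set against those of other genes on equal terms.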

How the data were processed

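Whole brains of 15 mice were sequenced by the authors as single-end reads of 50 bases. Per the file headers and the study's methods, reads were trimmed and placed on GRCm38 by STAR, and the authors used featureCounts 1.5.0-p1 with the Ensembl release 79 annotation, taking primary alignments with a mapping quality of at least 5 and a reverse-strand setting. The deposited values are raw counts per gene, without normalization. The use of strand keeps antisense neighbours apart only if the libraries were stranded, which is not given in the sources used here. Reads that map to several class I genes were not counted, which lowers the values of similar genes.

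The counts were tested here with edgeR 4.0.16 (TMM scaling, filterByExpr, quasi-likelihood test of the 4 group means over all 15 mice), with Benjamini-Hochberg adjustment over 15864 genes and a threshold of FDR 0.1, as in the study. CPM used TMM library sizes and RPKM the exon length in the files. Fits were tested on simulated data. Ratios within a mouse used a pseudocount of 0.5 and exact permutation tests. Alternatives were DESeq2 1.42.0, limma voom 3.58.1 with quality weights, RLE factors, no filter, replicate number or lane as a term, fewer groups, and each mouse left out. The labels do not say whether mice of a group shared a cage or litter, so p-values measure the spread between these mice. No pairing of mice across groups by the number in the titles was visible: deviations of 21 same-numbered pairs correlated at -0.113 to 0.113. A pairing that left no shared deviation would not be seen this way. All 10 members are named in every comparison. From the other lists, the genes called for age are named and up to 4 others by level, with the 5 genes nearest to the members' profile. The members, lists, motifs and tests were chosen with earlier results of these data known. Sequences are from RefSeq (GRCm38.p6), which held a window for 9 of the 10 members. Of 43629 identifiers, 42462 matched a symbol. Totals ran from 5198748 to 13610729 counts, and counting error limits the low genes most. The test of 1 microglial marker is not reported here, and its counts are part of the summed level.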

Additional observations from a re-analysis of the deposited data

Results flagged for a closer look

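In groups of 4 mice, the highest or lowest value, on the log2 scale, was compared with its neighbour as a share of the whole range of the group, against Dixon's 95% critical value for 4 values. Of 45 groups checked over the 10 genes and 5 ratios, 3 exceeded it, where chance gives about 1 in 20 groups, or 2.25. H2-K1 in the third old AL mouse (41.4 CPM against 30.5 to 31.8 in the others) had a gap of 0.863 of the range. Psmb9 in the first old AL mouse (0.995 CPM against 2.08 to 2.23, and 8 reads) had a gap of 0.91, and its ratio to Psmb6 in that mouse, which rests on the same reads, 0.856.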

How the results depend on the processing

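Members called for age in AL and averaged over diets stayed within 1.5 times the counts of 3 and 6 in every alternative run, and the counts for diet and interaction stayed at 0. In EOD, leaving out single mice gave 1 to 3 calls: the count fell to 1, B2m, without any one of the 3 young EOD mice or without the second old EOD mouse. With 1 mouse fewer the exact permutation test of the ratios gave 0 to 2 ratios at p under 0.05 for age in AL and 0 to 0 in EOD, where fewer mice allow no smaller p. All-gene counts for age in AL, in EOD and averaged were 173, 46 and 365 by edgeR, 245, 70 and 474 by DESeq2, and 152, 125 and 487 by limma voom.

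The replicate numbers shared by the groups showed no visible pairing of the mice (mean correlation -0.0266 over 21 pairs, 2 above 0.1). With the replicate block the member counts stayed within 1.5 times, and the averaged Tap1 call was lost (0.92, FDR 0.117). The replicate block left 0 ratios at p under 0.05 for age in AL and 0 in EOD, where its smallest possible permutation p is 0.125 and 0.25. It turned the Psmb10 to Psmb7 ratio to 0.03 for age in EOD and 0.01 for diet in young, and H2-K1 to B2m to 0.05 for diet in young.

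The other values that changed sign were small and none passed the threshold, and the cause was not tested. With lane as a term, Tap2 for diet in young was -0.01, and the interactions of H2-K1 and Tap2 were 0.1 and 0.11. With limma voom, Tapbp for diet in young was -0.01, Psmb9 for diet in old -0.04, and the interactions of Tap1 and Tapbp -0.21 and 0.04. Leaving out single mice, Psmb10 for age ranged from -0.17 to 0.01 in EOD and from -0.01 to 0.1 averaged. For diet in young, H2-K1 ranged from -0.1 to 0.02, H2-D1 from -0.15 to 0.12, Tap1 from -0.49 to 0.03 and Tapbp from -0.02 to 0.17. For diet in old, H2-K1 ranged from -0.21 to 0.04, H2-D1 from -0.2 to 0.03, Tap1 from -0.3 to 0.08, Tap2 from -0.13 to 0.15, Tapbp from -0.04 to 0.1, Psmb8 from -0.1 to 0.14 and Psmb9 from -0.1 to 0.26. For the interaction, H2-K1 ranged from -0.17 to 0.07, H2-D1 from -0.23 to 0.05, Tap1 from -0.14 to 0.39, Tap2 from -0.22 to 0.07 and Tapbp from -0.14 to 0.07. Among ratios, Psmb10 to Psmb7 ranged from -0.16 to 0.03 for age in EOD and from -0.11 to 0.04 for diet in young, and H2-K1 to B2m from -0.1 to 0.05 for diet in young. For diet in old, Psmb8 to Psmb5 ranged from -0.11 to 0.08, Psmb9 to Psmb6 from -0.12 to 0.31, H2-K1 to B2m from -0.08 to 0.12 and H2-D1 to B2m from -0.04 to 0.13. Psmb9, Tap1 and Psmb8 rest on the fewest reads, 6 to 60 per mouse.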
